A study of Homo sapiens with 12 samples.

Results

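EPDR1, GSPT2, LY75 and TBX18 are 4 protein-coding genes that were chosen from the deposited count table, which has 29744 gene rows, because they had almost no counts in the parental breast line and were counted in lines derived from it. The choice used the measured counts themselves, so the gap between the parental line and the derived lines describes the 4 genes and is not tested. TBX18 went against the name of the set: it was on in only 2 of the 3 derived lines and had no count in the invasive line. The table holds 12 RNA-seq libraries, 3 biological replicates of each of 4 human mammary epithelial cell lines, all grown from the same parent and all called triple-negative in the series design. A10 stands for MCF10A, the immortalised and non-tumorigenic parent. MCFNeoT, here NeoT, carries an introduced mutant HRAS oncogene and models benign hyperplasia. Cells of that line, grown as grafts in mice, gave MCFT1 (here T1), a model of atypical hyperplasia, and MCFCA1 (here CA1), a model of invasive cancer. The 3 derived lines therefore share the HRAS transgene. The labels name no treatment and do not say whether the replicates were separate thaws or parallel dishes, so p-values below measure the spread between these libraries only.

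The 4 genes have no common pathway. EPDR1 (ependymin related 1) encodes a lysosomal and secreted glycoprotein that binds lipids and was found first as a transcript raised in colorectal tumours. GSPT2 encodes eRF3b, a GTPase that works with the release factor eRF1 to end translation at stop codons; it is an intronless copy of GSPT1, whose protein eRF3a does this in most cells. LY75 encodes DEC-205 (CD205), an endocytic receptor of the mannose receptor family that carries antigens into dendritic cells and is also made by thymic epithelium. TBX18 encodes a T-box transcription factor of embryonic mesenchyme, needed for the smooth muscle of the ureter, the epicardium and the sinus node of the heart.

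On the GRCh38 assembly EPDR1 lies on chromosome 7 from 37920640 to 37951936, GSPT2 on chromosome X from 51743442 to 51746232, LY75 on chromosome 2 from 159803355 to 159904756 and TBX18 on chromosome 6 from 84732496 to 84764598. GSPT2 has 1 exon, and the transcripts of LY75 and TBX18 have up to 35 and 9 exons in GENCODE 29. The 4 genes thus lie on 4 chromosomes. Their promoter windows, 250 bases before to 50 bases after each RefSeq start, are shown so that the start regions of genes with no count in one line and many in another can be compared. All 4 symbols matched the RefSeq table (GRCh38.p14), which gives 2 starts for EPDR1. The sequences read 5′ to 3′ on the gene's own strand, and capitals mark each CpG, the dinucleotide at which DNA is methylated.
EPDR1 first start (chr7:37920390-37920689, plus strand): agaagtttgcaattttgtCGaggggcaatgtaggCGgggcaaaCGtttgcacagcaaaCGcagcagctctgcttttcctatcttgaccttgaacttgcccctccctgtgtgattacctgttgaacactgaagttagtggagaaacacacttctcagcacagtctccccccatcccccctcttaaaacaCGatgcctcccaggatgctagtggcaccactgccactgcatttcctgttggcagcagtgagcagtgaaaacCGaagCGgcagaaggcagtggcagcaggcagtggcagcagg
EPDR1 second start (chr7:37921069-37921368, plus strand): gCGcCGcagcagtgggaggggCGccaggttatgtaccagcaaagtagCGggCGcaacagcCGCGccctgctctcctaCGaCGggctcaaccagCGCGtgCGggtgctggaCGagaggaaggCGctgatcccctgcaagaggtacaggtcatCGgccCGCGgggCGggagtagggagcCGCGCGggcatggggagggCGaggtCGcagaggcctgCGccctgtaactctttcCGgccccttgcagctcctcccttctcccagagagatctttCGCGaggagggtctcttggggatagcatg
GSPT2 (chrX:51743192-51743491, plus strand): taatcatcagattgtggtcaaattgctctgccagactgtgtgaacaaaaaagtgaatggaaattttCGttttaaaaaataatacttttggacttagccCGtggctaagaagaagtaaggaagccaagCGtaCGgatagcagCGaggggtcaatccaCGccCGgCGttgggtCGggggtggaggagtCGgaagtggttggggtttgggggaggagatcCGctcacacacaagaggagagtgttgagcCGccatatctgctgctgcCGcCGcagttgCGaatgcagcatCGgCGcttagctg
LY75 (chr2:159904707-159905006, minus strand): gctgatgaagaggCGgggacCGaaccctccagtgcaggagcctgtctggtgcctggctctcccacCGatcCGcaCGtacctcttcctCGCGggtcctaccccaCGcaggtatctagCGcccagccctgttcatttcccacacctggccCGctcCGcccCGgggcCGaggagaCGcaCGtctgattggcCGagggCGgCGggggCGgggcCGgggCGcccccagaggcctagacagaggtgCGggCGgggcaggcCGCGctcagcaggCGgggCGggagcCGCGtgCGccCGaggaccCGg
TBX18 (chr6:84764549-84764848, minus strand): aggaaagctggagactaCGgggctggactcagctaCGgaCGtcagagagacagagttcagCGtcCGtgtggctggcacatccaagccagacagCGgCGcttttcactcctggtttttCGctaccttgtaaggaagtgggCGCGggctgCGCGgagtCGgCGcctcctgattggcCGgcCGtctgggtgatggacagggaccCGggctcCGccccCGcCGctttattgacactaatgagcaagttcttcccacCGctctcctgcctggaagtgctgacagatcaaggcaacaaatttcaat

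The windows differed in CpG content. The GSPT2 window held 17 CpG, an observed over expected ratio of 0.907, and the LY75 window held 32, a ratio of 0.786. TBX18 had 21 CpG (0.796) and the second EPDR1 start 27 (0.804), whereas the first EPDR1 start had 7 (0.325). The window of the second EPDR1 start lies wholly inside the gene, after the first start, and whether its letters are coding was not checked. Over 35116 windows of the same length the median ratio was 0.579, and 4 of the 5 windows stood at its 66.4th to 81.5th percentile and the first EPDR1 start at the 34.8th. The series has no methylation data, so these values describe the sequence only. In a check of the windows, the first bases after the start were found in a transcript for all but TBX18, so its start is less certain. Searched on both strands, none of the 5 windows held the letters TGANTCA of AP-1, present in 7.71% of all windows, CCGGAAG of ETS factors (10.3%), GGAATG of TEAD factors (14%) or the TATA box TATAAA (11.5%).

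The libraries held from 18032399 to 35730423 counts. Values are CPM, counts per 1000000 of a library total adjusted by TMM factors, and 3 counts over the 3 libraries of a line, the most that a total of 0 allows, correspond to 0.0326 CPM for A10, 0.0473 for NeoT, 0.0356 for T1 and 0.0463 for CA1. These limits cover counting error only. Expression of HRAS, the introduced gene, was 64.5 ± 4.58 CPM in A10 and ranged from 158 to 302 CPM in the means of the derived lines (SD, n = 3). Of 11 breast epithelial markers, A10, T1 and CA1 had all at 1 CPM or more. NeoT had 2 below it: TP63 with no count, and CDH1 at 0.691 ± 0.452 CPM against 312.6 ± 16.3 in A10. KRT5 and KRT17 were 83.2-fold and 213-fold lower in NeoT than in A10. By the test described below, 8 of the 11 were lower in NeoT than in A10 and 2 higher (36.7% and 33.7% of all genes). 2 libraries stood apart: T1 replicate 1 had 7.76% of its counts in ribosomal RNA rows against 0.954% to 2.18% in the other libraries, and NeoT replicate 3 correlated with NeoT replicates 1 and 2 at r = 0.9776 and 0.9784 (log2 CPM, across 14417 genes), whereas those 2 correlated at 0.9875 and the replicate pairs of the other lines at 0.9831 to 0.9891.

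**Figure D1:**
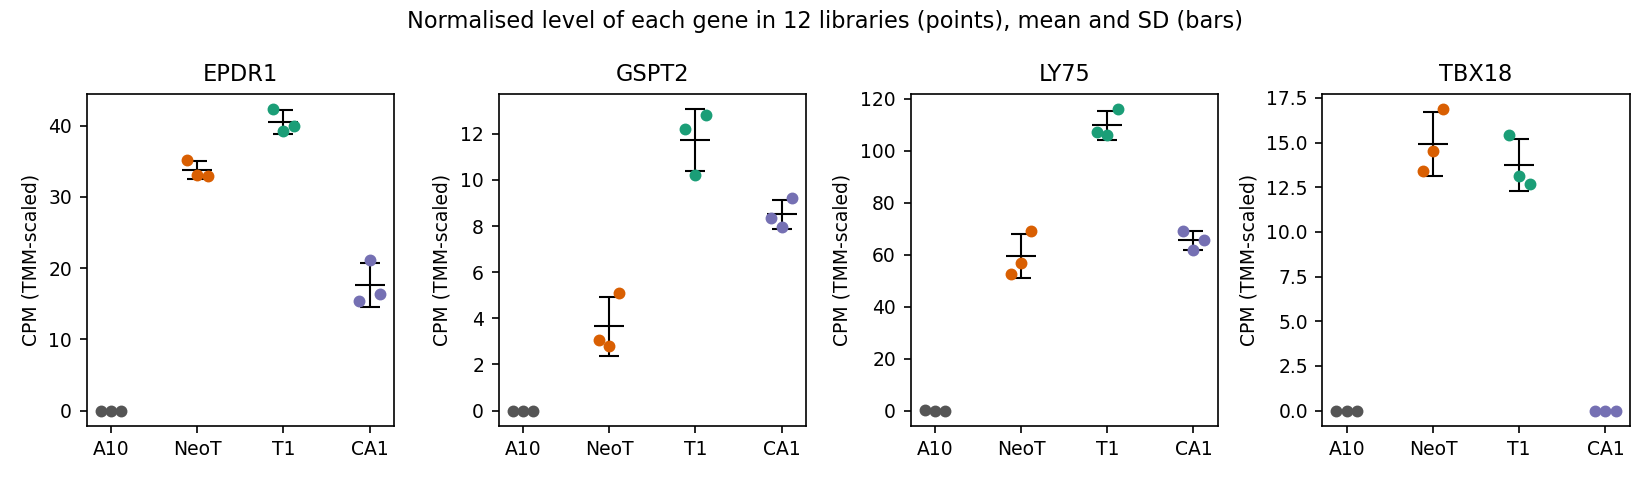
CPM of the 4 genes (y axes, each including 0) in the 12 libraries by line (x axis); points are libraries, and bars are the mean and SD of 3. All 4 genes are at or near 0 in A10; TBX18 is also at 0 in the 3 CA1 libraries, and EPDR1, GSPT2 and LY75 are highest in T1.

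EPDR1 was not counted in A10 and was well counted in every derived library; in bulk RNA, fewer expressing cells and less RNA per cell cannot be told apart. Its estimated count was 0 in each A10 library, against 807, 768 and 569 in NeoT, 1193, 1239 and 978 in T1 and 273, 490 and 388 in CA1. The levels were 35.2, 33.1 and 33.0 CPM in NeoT, 42.4, 39.2 and 40.0 in T1 and 15.4, 21.1 and 16.3 in CA1. The order was T1, NeoT, CA1, A10, and no library of one derived line overlapped those of another. Taken against the limit for A10, EPDR1 was at least 1037-fold higher in NeoT, 1242-fold in T1 and 544-fold in CA1. CA1 had the widest relative spread of the 3 lines, with an SD of 17.7% of its mean, against 5.11% from counting alone.

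GSPT2 also had no count in A10 and was counted in every derived library. NeoT held 70, 65 and 88 counts, T1 343, 321 and 312, and CA1 148, 185 and 220. These are 3.05, 2.80 and 5.11 CPM in NeoT, 12.2, 10.2 and 12.8 in T1 and 8.33, 7.98 and 9.22 in CA1. The lines were ordered T1, CA1, NeoT, A10 without overlap between libraries. NeoT replicate 3, the library that stood apart, gave the highest NeoT value. GSPT2 was at least 108-fold higher in NeoT, 355-fold in T1 and 262-fold in CA1 than the limit for A10.

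LY75 was nearly absent from A10 and abundant in the derived lines. A10 held 2 counts, both in replicate 1, and replicates 2 and 3 held 0. NeoT stood at 52.5, 56.9 and 69.0 CPM, T1 at 107.3, 105.9 and 116.2 and CA1 at 69.0, 61.8 and 65.6. T1 was above both other derived lines in all libraries, whereas the libraries of NeoT and CA1 overlapped. The ratio of CPM to A10 was 2694 in NeoT (exact 95% counting interval 745.2 to 22251), 5027 in T1 (1391 to 41519) and 2997 in CA1 (829.1 to 24753). Without A10 replicate 1 the parental line would be at 0.

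TBX18 was present in NeoT and T1 and had no count in A10 or CA1. NeoT held 307, 337 and 292 counts (13.4, 14.5 and 16.9 CPM) and T1 432, 415 and 311 (15.4, 13.1 and 12.7 CPM). These 2 lines overlapped, and the 6 libraries of A10 and CA1 were all at 0. Against the limit for A10, TBX18 was at least 453-fold higher in NeoT and 422-fold in T1. CA1 descends from the same HRAS-carrying cells as T1, and like A10 it had no TBX18 count.

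The rule named no difference among the derived lines, and these were tested over all 14417 genes that passed a filter on low counts. The 4 genes passed it, TBX18 only through NeoT and T1. The gap of TBX18 from CA1 is therefore described without a p-value, though TBX18 is included in the counts of genes called below. The test was edgeR's quasi-likelihood test with Benjamini-Hochberg adjustment, two-sided, called at an adjusted p under 0.05. T1 against NeoT compares the graft-passaged atypical line with the line it came from. There 3 of the 4 genes differed, beside 67.4% of all tested genes, and all 3 were higher in T1, beside 35.0%. The libraries of the 2 lines did not overlap for these 3, as for 68.6% of all genes. GSPT2 rose 3.24-fold (log2 difference 1.69, SE 0.22, adjusted p = 3.66e-06) and LY75 1.85-fold (0.89, SE 0.10, adjusted p = 2.41e-07). EPDR1 was 1.20-fold higher in T1 (0.26, SE 0.11, adjusted p = 0.049), a call at the threshold that was lost with RLE scaling (adjusted p = 0.0569), with DESeq2 (0.0546) and with any 1 of 7 libraries left out (0.0517 to 0.154: NeoT replicates 1, 2 and 3, T1 replicates 1, 2 and 3, CA1 replicate 3). TBX18 stood at 15.0 ± 1.82 CPM in NeoT and 13.7 ± 1.43 in T1 (SD, n = 3), a log2 difference of -0.12 with an approximate 95% interval of -0.45 to 0.21 (adjusted p = 0.543).

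CA1 against T1 compares the invasive line with the atypical one. Again 3 of 4 genes differed, with 62.2% of all genes called, here all lower in CA1 (31.9% of all genes), and the libraries of the 2 lines did not overlap in any of the 4, as in 71.0% of all genes. EPDR1 was 2.30-fold lower (log2 difference -1.20, SE 0.12, adjusted p = 1.65e-07) and LY75 1.68-fold lower (-0.75, SE 0.10, adjusted p = 2.96e-06). TBX18 was at least 297-fold lower in CA1, computed against 3 counts over its libraries. GSPT2 averaged 8.51 CPM in CA1 and 11.7 in T1, a log2 difference of -0.46 (SE 0.21, approximate 95% interval -0.86 to -0.05), which missed the threshold (adjusted p = 0.0651). It passed with limma-voom (adjusted p = 0.0159), in a fit to the 6 libraries of these 2 lines (0.00505) and without NeoT replicate 3 (0.024).

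CA1 against NeoT gave both directions. Of the 4 genes 3 differed, beside 66.4% of all genes: 1 was higher in CA1 (33.8% of all genes) and 2 were lower (32.7%). The same 3 did not overlap between the lines, as in 67.9% of all genes. GSPT2 was 2.36-fold higher in CA1 (log2 difference 1.24, SE 0.22, adjusted p = 0.000118), EPDR1 was 1.92-fold lower (-0.94, SE 0.12, adjusted p = 2.32e-06) and TBX18 was at least 319-fold lower. LY75 differed by 0.14 on the log2 scale (SE 0.10, approximate 95% interval -0.05 to 0.34, adjusted p = 0.222). Without NeoT replicate 3 that difference became 0.26 and passed (adjusted p = 0.00675). In all 3 comparisons the share of the set that was called was near the share of all genes, so being called does not set the 4 genes apart.

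**Figure D2:**
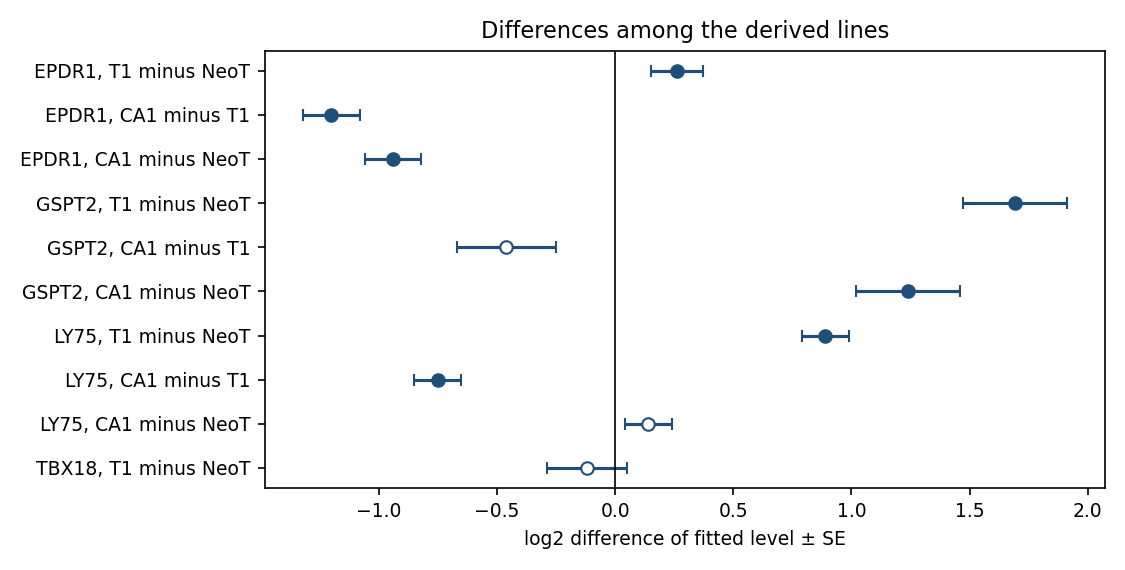
Log2 difference between derived lines (x axis) for each gene and pair of lines (y axis) with its SE; filled points passed an adjusted p under 0.05, open points did not. GSPT2 has the largest positive difference, 1.69 for T1 minus NeoT, and EPDR1 the most negative, -1.20 for CA1 minus T1; TBX18 against CA1 is not drawn because CA1 is at 0.

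GSPT2 and GSPT1 encode near-equivalent release factors, so reads could be shared between them, and this was checked. Of the 2772 distinct 31-base words in the GSPT2 transcript, 63 (2.27%) also occur in GSPT1 transcripts of GENCODE 29. All 12 deposited GSPT2 values were whole numbers (within 1e-06), as were all those of EPDR1, which shares 2.8% of its words with other genes, and of TBX18, which shares none. The GSPT1 level was 234.3 ± 3.11 CPM (SD, n = 3) for A10. It was 235.5 ± 18.6 CPM for NeoT, 251.5 ± 4.48 for T1, and for CA1 234.0 ± 6.98. In A10, 21504 GSPT1 counts came with 0 GSPT2 counts. GSPT2 made up 1.24% to 1.95% of the counts of the pair in NeoT, 3.91% to 4.74% in T1 and 3.37% to 3.67% in CA1. GSPT1 passed the test in none of the 3 comparisons with A10 (adjusted p = 0.926 in NeoT, 0.18 in T1 and 0.983 in CA1).

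Other genes of translation termination and of nonsense-mediated decay, which destroys messages with early stop codons, moved both ways. All 21 listed genes were tested: 8 were higher and 4 lower in NeoT than in A10, where 70.4% of all genes were called (33.7% higher and 36.7% lower). In T1 3 were higher and 4 lower, with 51.9% of all genes called (26.0% and 25.9%). In CA1 6 were higher and 5 lower, with 70.9% called (34.4% and 36.5%). The median log2 difference was 0.02, -0.02 and 0.04, against -0.042, -0.007 and -0.023 over all genes. The 7 calls in T1 became 4 without A10 replicate 3, T1 replicate 1 or T1 replicate 2. SMG9, a regulator of the SMG1 kinase of this decay, had the largest change, 22.9 ± 1.18 CPM in A10 against 80.9 ± 7.12 in NeoT (3.54-fold, adjusted p = 2.77e-12). Its CA1 level was 50.2 ± 2.56 CPM (2.19-fold, adjusted p = 2.78e-09). SMG5, which joins decay factors to the marked message, fell in all 3 (2.07-fold, 1.72-fold and 2.40-fold). TRMT112, partner of the methyltransferase that modifies eRF1, fell too (1.89-fold, 1.72-fold and 1.46-fold). ETF1, which encodes eRF1 itself, stood at 341 ± 15.7 CPM in A10 and between 308 and 364 in the means of the derived lines, and passed in none of the 3.

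At the LY75 locus the table has rows for 3 overlapping or adjacent transcripts. CD302, a small C-type lectin receptor, lies downstream of LY75 on the same strand, and LY75-CD302 is a read-through transcript that joins LY75 exons to CD302 exons. LY75 and LY75-CD302 were on in the derived lines, whereas CD302 alone was highest in A10. CD302 held 2.54, 2.13 and 2.49 CPM in A10, 0 in all NeoT libraries, 1.30 CPM in T1 replicate 2 and 0 in the other 2, and 0.676 CPM in CA1 replicate 1 and 0 in the other 2. It was lower in NeoT than in A10 (adjusted p = 0.0184, edgeR), and missed the threshold in T1 (adjusted p = 0.189) and CA1 (0.0761). The single libraries with CD302 counts set the T1 and CA1 means.

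LY75-CD302 stood at 7.72, 9.87 and 9.81 CPM in NeoT, 6.87, 5.76 and 6.62 in T1 and 3.94, 2.93 and 2.35 in CA1, and A10 held 1 rounded count. Unlike LY75 it was highest in NeoT: 1.42-fold above T1 (adjusted p = 0.0491) and 2.99-fold above CA1 (adjusted p = 8.89e-06), and T1 was 2.10-fold above CA1 (adjusted p = 0.000638). As a share of LY75 plus LY75-CD302 counts, the read-through form made up 12.8%, 14.8% and 12.5% in NeoT, 6.01%, 5.14% and 5.38% in T1 and 5.44%, 4.52% and 3.43% in CA1. NeoT lay above both other lines without overlap, and T1 and CA1 overlapped. The F statistic of these shares, set against all 1680 assignments of the 9 libraries to lines in an exact permutation test added after the values were seen, gave p = 0.0107. Of the 31-base words of LY75 transcripts 56.7% occur in LY75-CD302, and only 3 of 12 LY75 values were whole, so the division of reads between the 2 rows is Salmon's estimate. Of the words of CD302 transcripts 57.3% occur in its other neighbour MARCH7, so its low counts are uncertain too.

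**Figure D3:**
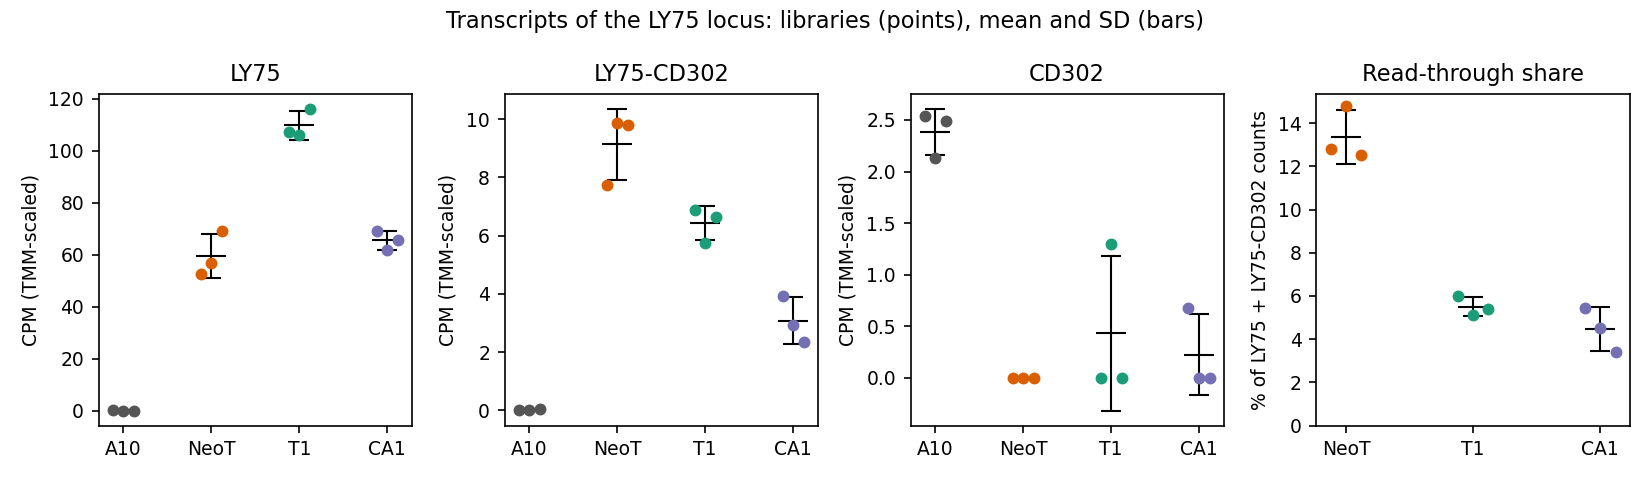
CPM of LY75, LY75-CD302 and CD302 (first 3 panels) and LY75-CD302 as a percent of the counts of both LY75 rows (last panel) by line; points are libraries, bars the mean and SD of 3. LY75 peaks in T1 and LY75-CD302 in NeoT, CD302 is seen in every A10 library and in no NeoT library, and the read-through share is 12.5% to 14.8% in NeoT against 3.43% to 6.01% in T1 and CA1.

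Other members of the LY75 family and other C-type lectin genes moved both ways. The 17 listed genes are of the mannose receptor family and other C-type lectins, not all of them endocytic receptors. Of these, 6 were tested and 5 had no count in any library. In NeoT 2 were higher and 3 lower than in A10, and in each of T1 and CA1 1 was higher and 4 lower. Over all genes 70.4%, 51.9% and 70.9% were called. The median log2 difference of the 6 was -0.68, -1.93 and -2.48, against -0.042, -0.007 and -0.023 over all genes. CLEC2D, the ligand of an inhibitory receptor on natural killer cells, was the 1 that rose in all 3 lines (2.42-fold, 2.21-fold and 1.69-fold). PLA2R1, a mannose receptor family member that lies beside LY75, rose 6.59-fold in NeoT, to 36.8 ± 2.66 CPM, and fell 2.76-fold in T1 and 2.67-fold in CA1. MRC2, the collagen-internalising receptor Endo180, stood at 45.7 ± 4.37 CPM in A10 and fell in T1 (1.45-fold) and CA1 (1.53-fold). CLEC2B fell 2.18-fold, 5.39-fold and 28.2-fold. OLR1, a receptor for oxidised lipoprotein, had 2.46 ± 0.804 CPM in A10 and no count in any derived library, at least 54.9-fold lower in NeoT, 72.9-fold in T1 and 56.1-fold in CA1.

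LY75 is known from dendritic cells, so their markers and those of other leukocytes were counted. Of 14, PTPRC (the CD45 antigen of all leukocytes), XCR1 and IRF8 had 0 counts in all 4 lines. Summed over the 14, libraries of A10 held 13 to 17.1 CPM, those of NeoT 6.67 to 9.24, those of T1 5.76 to 6.36, and those of CA1 3.94 to 6.47. Of the 6 tested, 1 was higher and 3 lower in NeoT than in A10, 1 higher and 4 lower in T1, and 0 higher and 4 lower in CA1. Among all genes 36.7%, 25.9% and 36.5% were lower in these comparisons. CD86, a costimulatory molecule, fell from 3.41 ± 0.476 CPM in A10 to 0 counts in NeoT and CA1. With genes of at least 1 CPM in 3 libraries tested, 3 of the markers were called in T1 in place of 5.

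Other T-box genes, which share the DNA-binding domain of TBX18, were counted in few cases and none had its pattern. Of 16, 5 had no count and 6 were tested; 2 were higher and 1 lower in NeoT than in A10, 1 higher and 2 lower in T1, and 2 higher and 4 lower in CA1, with median log2 differences of 0.28, -0.17 and -0.94 (all genes: 70.4%, 51.9% and 70.9% called). The 3 calls in NeoT became 5 without NeoT replicate 3. TBX3, a regulator of mammary gland formation, rose 10.3-fold in NeoT, from 10.2 ± 0.336 to 104.5 ± 9.24 CPM (adjusted p = 2.34e-15), stood at 12.7 ± 1.39 in T1 (1.25-fold, adjusted p = 0.0158) and fell 1.93-fold to 5.24 ± 0.392 in the invasive line (adjusted p = 8.71e-07). TBX2 fell 1.94-fold in CA1, and stood at 5.41 ± 1.01 CPM in NeoT against 4.06 ± 0.478 in A10 (adjusted p = 0.0932). EOMES, of early embryos and lymphocytes, fell 12.1-fold, 11-fold and 30.2-fold from 2.89 ± 0.377 CPM in A10. TBX19 rose in NeoT (2.38-fold) and CA1 (2.48-fold), and TBX6 rose 11.9-fold in CA1, from 0.134 ± 0.171 to 1.54 ± 0.623 CPM.

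Developmental regulators listed beside TBX18, not all of them from the tissues in which it is known to act, also went several ways. Of 17 genes listed for the epicardium, sinus node, ureteric mesenchyme and other embryonic tissues, 6 had no count and 7 were tested. In NeoT 2 were higher and 5 lower than in A10, in T1 2 higher and 3 lower and in CA1 3 higher and 3 lower. Over all genes 70.4%, 51.9% and 70.9% were called. PITX1, a homeobox gene of hindlimb and pituitary, fell 2.04-fold in NeoT and rose 1.90-fold in T1 and 2.51-fold in CA1, where it reached 330 ± 8.72 CPM. SHOX2, needed for the sinus node, rose in NeoT (1.84-fold) and CA1 (3.29-fold), and BMP4, a signal of many mesenchymes, rose in T1 (9.61-fold) and fell in NeoT (3.66-fold). WT1, which marks the epicardium, had 1.10 ± 0.169 CPM in A10 and 0 counts in NeoT and CA1. NeoT and T1, the lines with TBX18, differed in the sum of 13 fibroblast markers. This sum ran from 17169 to 20762 CPM in NeoT, from 195.6 to 204.3 in T1, from 2038 to 2252 in A10 and from 467.1 to 498.1 in CA1. FN1 (fibronectin) made up most of the NeoT sum, at 15974 ± 1762 CPM. No marker was at 0 in T1, and 7 were at 0 in CA1, but 8 of the 13 were under 1 CPM in each of these 2 lines. Of the 10 tested, 5 were higher and 2 lower in NeoT than in A10, 0 and 7 in T1, and 1 and 6 in CA1. In CA1 against T1 3 were higher and 5 lower, where 62.2% of all genes were called and 31.9% were lower. The breast epithelial markers numbered 2 higher and 8 lower in NeoT than in A10, 8 and 3 in T1 and 5 and 4 in CA1. Against A10, all genes gave 33.7% higher and 36.7% lower in NeoT, 26.0% and 25.9% in T1, and 34.4% and 36.5% in CA1. The part of either list in the levels of the 4 genes was not tested.

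For EPDR1, whose protein lies in the lysosome, 19 genes of lysosomal lipid and ganglioside breakdown were listed and 18 tested. In NeoT 11 were higher and 4 lower than in A10, in T1 5 and 9, and in CA1 8 and 6. All genes gave 33.7% higher and 36.7% lower in NeoT, 26.0% and 25.9% in T1, and 34.4% and 36.5% in CA1. The median log2 differences of the list were 0.28, -0.08 and 0.00. PSAP, the precursor of the saposins that present lipids to lysosomal enzymes, rose in all 3, 3.98-fold, 2.50-fold and 2.84-fold (adjusted p = 2.16e-16, 1.75e-13 and 1.16e-14). The cholesterol-binding protein gene NPC2 rose 2.39-fold in CA1. LIPA, the acid lipase, fell 2.73-fold in NeoT, 1.17-fold in T1 and 5.56-fold in CA1.

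Apart from the LY75-CD302 row, none of the 3 nearest coding genes with a row on each side was near 0 in A10 and above 1 CPM in a derived line. Of 24 nearest coding genes, 3 on each side, 23 had a row and 15 were tested; 5 were higher and 7 lower in NeoT than in A10, 4 and 4 in T1 and 6 and 7 in CA1 (all genes: 70.4%, 51.9% and 70.9% called). LY75-CD302 is 1 of the higher genes in each of these comparisons. It shares 88.3% of its 31-base words with LY75, so its gap from A10 is not separate from the choice of LY75. SFRP4, 3.82 kb from EPDR1, had no count in any library, and STARD3NL on the other side stood at 27.0 ± 3.35 CPM in A10 and 18 ± 0.693 to 25.2 ± 2.50 in the derived lines. MAGED1, 56.8 kb from GSPT2, was at 64.5 ± 2.26 CPM in A10 and rose in NeoT (1.61-fold) and CA1 (1.71-fold), but CENPVL1 on the other side, listed under an older symbol, had 1 count in all, in A10. Near LY75, ITGB6, a subunit of an epithelial integrin, fell 595-fold in NeoT and rose 1.70-fold in T1 and 1.40-fold in CA1. The neighbours of TBX18 are far from it: NT5E (CD73), 685 kb away, rose in all 3 lines (2.11-fold, 1.88-fold and 4.33-fold) and was highest in CA1, where TBX18 was at 0. CEP162, 505 kb away on the other side and listed under an older symbol, stood at 0.682 ± 0.350 CPM in CA1 against 3.82 ± 0.912 in T1 (adjusted p = 0.000232). MRAP2, on that side and named after its values were seen, had 69 counts in T1 and 1 in CA1, a gap given without a test. It had 96 in A10 and 26 in NeoT. CYB5R4, the third gene on that side, stood at 15.4 ± 0.152 CPM in T1 and 14.4 ± 1.93 in CA1 (adjusted p = 0.526).

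**Figure D4:**
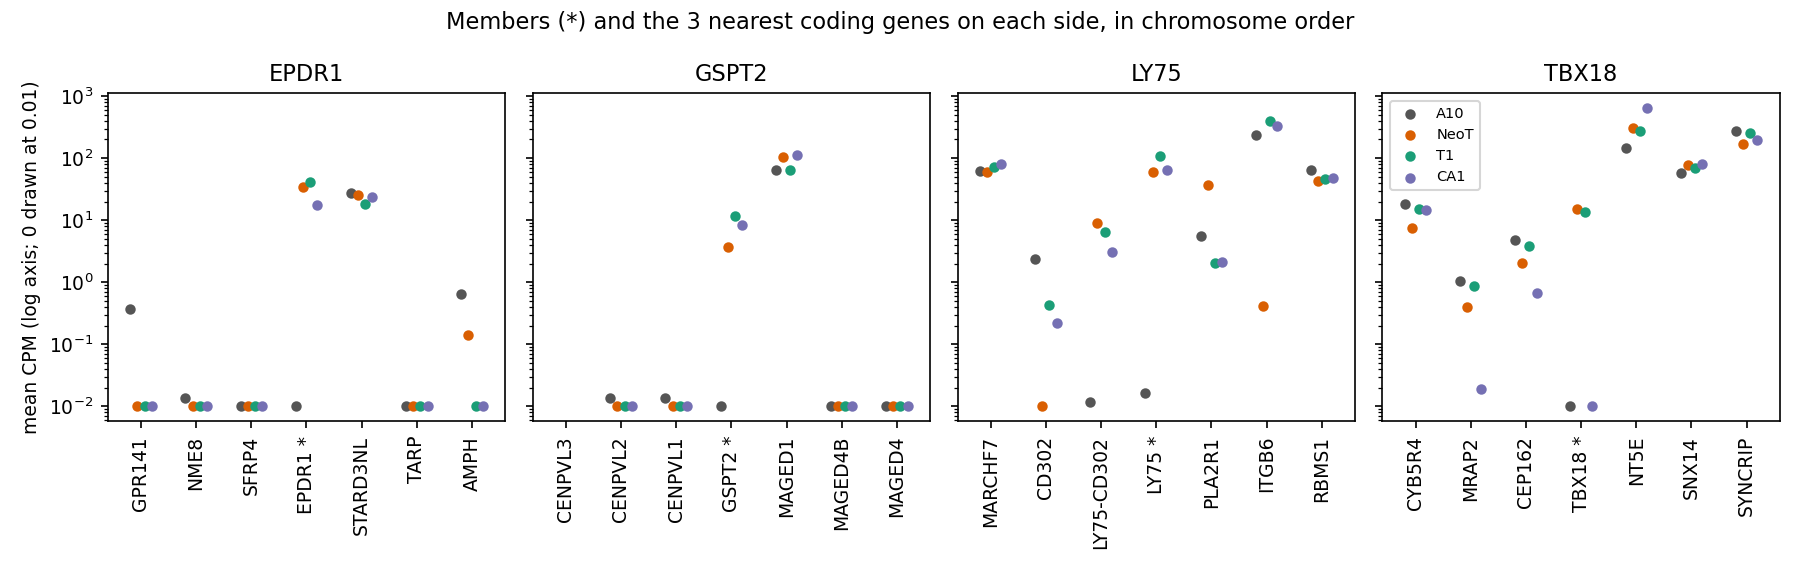
Mean CPM (log axis, with 0 drawn at 0.01) in the 4 lines of each gene (marked *) and its 3 nearest coding genes on each side, in chromosome order along the x axis; points are means of 3 libraries, and CENPVL3 has no row. The 4 genes and LY75-CD302 have A10 at or near 0 and a derived line above 1 CPM; no other neighbour drawn does.

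Few genes in the whole table had the pattern of EPDR1, GSPT2 and LY75. With A10 under 0.1 CPM over its 3 libraries and at least 1 CPM in each of the 9 derived libraries, limits set for this count, 9 of 29744 rows (0.0303%) qualified: these 3 genes, LY75-CD302, TNXB, FAM221A, PTPN20B, ESX1 and GRAP. The lowest derived library held 52.5 CPM for LY75, 15.4 for EPDR1 and 2.80 for GSPT2. TNXB, the matrix glycoprotein tenascin X, had 9 counts in A10 (0.0979 CPM, just inside the limit) and was highest in NeoT (13.3 ± 1.16 CPM). Its locus has a near-identical partial copy, so its reads may be divided. ESX1, a homeobox gene of placenta and testis, had 0 counts in A10, 2.47 ± 0.515 CPM in NeoT, 9.74 ± 0.949 in T1 and 5.04 ± 0.944 in CA1. GRAP, an adaptor protein related to GRB2 that links receptors to RAS, was also at 0 in A10 and stood at 1.71 ± 0.707, 3.42 ± 0.382 and 6.69 ± 1.05 CPM in the derived lines. FAM221A (8 counts in A10) was highest in CA1, at 6.10 ± 0.273 CPM, and PTPN20B (4 counts) in T1, at 4.55 ± 0.250. Just outside the limits were HOXA7 and DHRS9, at 0.152 and 0.196 CPM in A10, and LOC101059906, at 0 in A10 with a lowest derived library of 0.812 CPM.

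**Figure D5:**
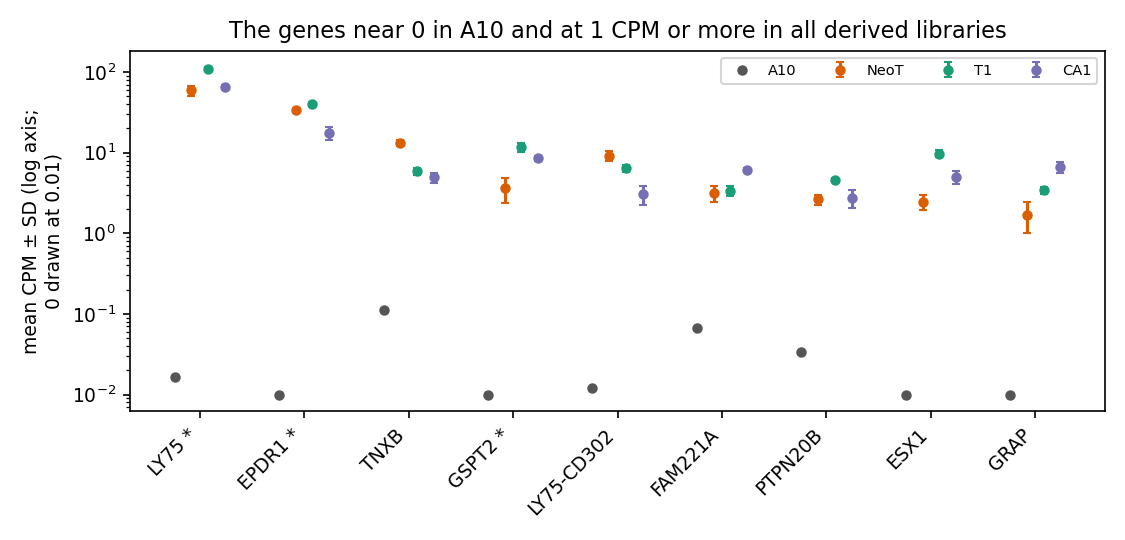
Mean CPM ± SD (log axis, with 0 drawn at 0.01; no SD drawn for A10) in the 4 lines of the 9 genes under 0.1 CPM in A10 and at 1 CPM or more in every derived library; * marks the genes of this set. The 9 genes differ in which derived line is highest: T1 for 5, NeoT for 2 and CA1 for 2.

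Genes on in other combinations of derived lines under the same limits varied in number: 21 in NeoT alone, 8 in T1 alone, 17 in CA1 alone, 15 in T1 and CA1, 1 in NeoT and CA1, and 5 in NeoT and T1. The last 5, named after their values were seen, were TBX18, TH, ME3, PPP1R3C and HAS2. TH, the first enzyme of catecholamine synthesis, stood at 11.1 and 4.27 CPM in NeoT and T1, and HAS2, a hyaluronan synthase, at 1.74 and 2.33 CPM.

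The likeness of whole profiles was measured as the root mean square distance between log2 CPM values (prior count 2, each gene centred on its mean) over the 12 libraries. All 4 genes were chosen for being near 0 in A10, which these distances include, so closeness among them in part restates that choice. EPDR1 and LY75 were each other's nearest gene among all tested (distance 0.674, against a median over all genes of 3.77 from EPDR1 and 4.25 from LY75). GSPT2 had rank 3 from EPDR1 (1.20) and rank 2 from LY75 (1.44), but from GSPT2 itself EPDR1 had rank 13 and LY75 rank 29. The nearest to GSPT2 was ESX1 (0.373), followed by DHRS9 (0.743), GRAP (0.757), HOXA7 (0.773) and LOC101059906 (0.839). TBX18 lay far from the other 3, at distances of 3.04 to 3.59, and its nearest genes were TH (0.880), ME3 (0.978), AGMAT (1.05), PPP1R3C (1.49) and CYP4X1 (1.74). The libraries of a line share their cells, so these distances rest mainly on 4 line means and are a description.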

How the data were processed

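Gene-level estimated counts (expected counts) of 12 libraries were used as the authors deposited them. They came from Salmon, as the deposited table is named, and carry no scaling; 10.1% were not whole. GRCh38 and limma are named, with no role, per the submitters' processing notes. Annotation and versions are not given in the sources used here. Per the labels' protocols, DNase-treated RNA was made into libraries with a NEBNext Ultra kit. Whether reads were counted by strand is not given in the sources used here.

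Counts were rounded, filtered with filterByExpr (14417 genes left), scaled by TMM and fitted to all 12 libraries with edgeR 4.0.16 (R 4.3.3; glmQLFit, robust). Alternatives used DESeq2 1.42.0 and limma 3.58.1; tables were made in Python 3.11.15 with numpy 2.4.6, pandas 2.3.3 and scipy 1.17.1, and plots with matplotlib 3.10.9. The fit was tested on simulated data. The table of sequences and gene order is RefSeq's GRCh38.p14; 23149 rows matched by symbol. The 4 genes and all lists were chosen with earlier results of these data known. Named genes were the 4 genes, GSPT1, CD302, the nearest neighbours, up to 4 genes per list by level and 3 by change, the 5 nearest in profile, and up to 10 genes with the on pattern. The 8 lists were translation termination, C-type lectins, T-box, epicardial, ureteric and other developmental regulators, lysosomal lipids, leukocytes, fibroblasts and breast epithelium.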

Additional observations from a re-analysis of the deposited data

How the results depend on the processing

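The counts of genes differing in the 6 comparisons stayed within 1.5 times under every alternative. Differences of the 4 genes between derived lines kept their direction in all fits, and all calls but 1 were kept. The exception was EPDR1 in T1 against NeoT, at log2 differences of 0.25 with RLE scaling (adjusted p = 0.0569), 0.21 with upper-quartile scaling (0.112), 0.26 with no filter (0.053), 0.26 with at least 1 CPM in 3 libraries (0.0522), 0.25 with DESeq2 (0.0546), 0.20 without both T1 replicate 1 and NeoT replicate 3 (0.178), and 0.22 to 0.30 with single libraries left out. Of the 3 differences that missed the threshold, 2 passed in some fits: GSPT2 in CA1 against T1 with limma-voom (-0.44) and with only the libraries compared (-0.46; -0.55 to -0.39 with single libraries left out), and LY75 in CA1 against NeoT without both of those libraries (0.24; 0.06 to 0.26 with single libraries left out). The cause was not tested.

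With the replicate block EPDR1 in T1 against NeoT was 0.26 (adjusted p = 0.0634), the block changed no other call of the 4 genes, and 9541 genes differed in that comparison in place of 9718. The numbers do not pair the libraries: deviations from the line means correlated by -0.069 to 0.088 over 18 same-numbered pairs, and 5 of 12 libraries lay closest to their own number. The count of 9 genes with the on pattern was 15 with a derived minimum of 0.5 CPM and 8 to 10 with single libraries left out. Calls in the T-box list in NeoT against A10 were 5 without both T1 replicate 1 and NeoT replicate 3 and 3 to 5 with single libraries left out, those of translation termination in T1 against A10 were 4 to 10, and those of leukocyte markers in T1 against A10 were 3 with at least 1 CPM in 3 libraries. The read-through share gave exact permutation p from 0.00357 to 0.0179 with single libraries left out. Depth limits NeoT most and A10 least: a gene at 0 can stand at up to 0.0473 CPM in the first and 0.0326 CPM in the second.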

Other observations

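NUDT11, the fourth coding gene on the other side of GSPT2 from MAGED1 and chosen after its values were seen, had the opposite pattern. It lies on chromosome X from 51490011 to 51496592, 246.8 kb from GSPT2, and encodes a phosphohydrolase of inositol polyphosphates. NUDT11 stood at 6.18, 5.27 and 5.81 CPM in A10 and had no count in any of the 9 derived libraries. It was at least 123-fold lower in NeoT, 164-fold in T1 and 126-fold in CA1. The choice of NUDT11 used these values, so no test of the gap is given. Of the 3 coding genes between NUDT11 and GSPT2, 2 had 1 count each and CENPVL3 has no row. NUDT10 is a near-identical copy of NUDT11, so the division of their reads is uncertain.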
